A study of Mus musculus with 50 samples.

Results

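Developmental transcription factor loci are described here through 10 counted genes of the 37310 in the RNA tables. Of these, 3 are loci with a counted gene on each strand: 2700086A05Rik opposite Hoxa7, Gm16764 opposite Nkx1-2, and Gm16989 opposite Tcfap2a. Foxd1, En2, Nkx6-3 and Hoxc13 have no annotated exon on the other strand. The genes were named from results of the same libraries, by their counts in 3 groups, so their levels and differences are given as a description. Counts of calls among them stand once beside the share over all genes, and nothing is read from them. A filter on low counts kept 9 of the 10, all but Hoxa7, and 5034 genes in all.

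The cells were J1, embryonic stem (ES) cells from 129S4/SvJae mice, untreated and grown on gelatin with serum and the cytokine LIF. Wild type (WT) cells were compared with KO1 and KO2, a pair of lines labelled NSD1-/-, with 2 total RNA libraries in each of the 3 groups. The enzyme NSD1 methylates H3K36, and the series title links it to HDAC1 and H3K27ac at enhancers. Chromatin assays account for 44 of the 50 samples of the series and were not analysed here. How KO1 and KO2 were made, whether each is 1 clone, and whether replicates came from separate cultures is not in the labels, so the p-values given cover only the differences among these libraries, which may be technical. KO1 and KO2 share the WT libraries as their controls.

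Homeobox, forkhead and AP-2 genes encode transcription factors that set cell identity and body pattern in the embryo. In ES cells many of them are held near silence by Polycomb complexes and become active when the cells differentiate. Many of these genes have a non-coding transcript on the other strand, and the HoxA cluster is known for several. Hoxa7 and Hoxc13 belong to the Hox clusters, which pattern the body axis. Nkx1-2 and Nkx6-3 are NK-type homeobox genes, En2 is an engrailed gene of the midbrain and hindbrain, Foxd1 is a forkhead gene of the kidney stroma and retina, and Tcfap2a encodes AP-2 alpha, a factor of neural crest and surface ectoderm.

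A homeobox of 180 bases was found in 5 of the 7 protein-coding genes in the coding sequences of GENCODE version 1, and not in Foxd1 or Tcfap2a, which belong to other families. For 4 of these genes, the end of the homeobox, 57 bases that encode its DNA-recognition helix, is shown on the coding strand because it is the part that these otherwise different genes share. Capitals mark the 18 bases that encode the conserved core of the helix.
Hoxc13: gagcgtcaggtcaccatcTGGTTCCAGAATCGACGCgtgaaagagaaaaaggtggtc
Nkx1-2: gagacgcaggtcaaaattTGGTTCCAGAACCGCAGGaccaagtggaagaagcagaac
Nkx6-3: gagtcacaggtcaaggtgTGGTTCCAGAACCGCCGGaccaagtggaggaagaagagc
En2: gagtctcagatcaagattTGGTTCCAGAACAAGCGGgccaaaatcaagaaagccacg
Over the whole homeobox, the 10 pairs of genes were identical at 45.6% of bases for Hoxc13 with Nkx6-3 up to 64.4% for Nkx1-2 with Nkx6-3.

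Gm16764 lies over this part of Nkx1-2, on the other strand. Its exons hold 601 bases, of which 541, or 90.0%, overlap exons of Nkx1-2. The first exon, 301 bases, lies wholly in coding sequence and covers 179 of the 180 homeobox bases. The stretch below is chr7:139789070-139789369 of mm9, read on the minus strand as Nkx1-2 is, with its homeobox bases in capitals. It is shown because exons of Gm16764 and of Nkx1-2 lie on the 2 strands of the same bases here. The 541 shared bases are 16.6% of the exon length of Nkx1-2, and counts per gene do not place fragments within them.
Nkx1-2 exon opposite Gm16764: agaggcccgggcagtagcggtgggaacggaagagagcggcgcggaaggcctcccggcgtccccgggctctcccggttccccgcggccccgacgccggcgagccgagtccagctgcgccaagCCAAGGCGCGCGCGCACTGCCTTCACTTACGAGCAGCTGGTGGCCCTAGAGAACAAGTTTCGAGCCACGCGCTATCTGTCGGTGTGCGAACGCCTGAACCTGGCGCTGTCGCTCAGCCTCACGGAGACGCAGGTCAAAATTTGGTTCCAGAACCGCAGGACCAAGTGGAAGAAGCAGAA

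Windows of 300 bases around transcript starts, 250 before and 50 after, were held by the RefSeq table of GRCm38.p6 for 4 of the 10 genes: Hoxa7, Nkx1-2, Tcfap2a (listed as Tfap2a, with 2 starts) and Foxd1. Of these, 3 windows are printed on the strand of the gene because a counted exon lies over the start (Nkx1-2, Tcfap2a) or because the gene had the lowest share of its WT count in KO1 (Foxd1). Capitals mark CG dinucleotides, the site of DNA methylation.
Nkx1-2, chr7:132599588-132599887, minus strand: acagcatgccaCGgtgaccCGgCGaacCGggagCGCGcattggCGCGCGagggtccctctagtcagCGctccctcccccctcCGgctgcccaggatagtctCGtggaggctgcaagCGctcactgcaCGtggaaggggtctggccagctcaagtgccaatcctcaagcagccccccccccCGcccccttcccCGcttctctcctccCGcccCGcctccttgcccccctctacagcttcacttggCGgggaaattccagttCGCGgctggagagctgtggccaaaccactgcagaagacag
Tcfap2a, chr13:40734871-40735170, minus strand: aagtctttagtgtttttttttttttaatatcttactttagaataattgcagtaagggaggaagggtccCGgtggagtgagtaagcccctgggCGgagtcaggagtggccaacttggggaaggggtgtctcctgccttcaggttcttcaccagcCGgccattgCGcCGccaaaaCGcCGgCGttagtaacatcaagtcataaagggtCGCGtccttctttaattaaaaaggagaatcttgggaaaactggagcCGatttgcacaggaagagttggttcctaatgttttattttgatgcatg
Foxd1, chr13:98353995-98354294, plus strand: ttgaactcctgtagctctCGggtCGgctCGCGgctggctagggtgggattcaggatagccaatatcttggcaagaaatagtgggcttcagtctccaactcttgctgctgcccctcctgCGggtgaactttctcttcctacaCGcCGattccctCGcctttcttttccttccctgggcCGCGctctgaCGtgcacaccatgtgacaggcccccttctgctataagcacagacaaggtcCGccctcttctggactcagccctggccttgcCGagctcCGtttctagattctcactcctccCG
These windows hold 21, 11 and 15 CG. Hoxa7 holds 9 and the other Tcfap2a start 15, against a median of 7 over all 32851 windows. At least as many CG are held by 24.8% of all windows for Nkx1-2, 41.4% for the printed Tcfap2a window, 34.6% for Foxd1 and 45.8% for Hoxa7, so none of the 5 windows stands at the end of the range. Each of the windows matched mm9 exactly once. In mm9 the Nkx1-2 start is base 139791320 of chromosome 7, which is also the last base of Gm16764, so 50 bases of that window are exon of Gm16764. Of the printed Tcfap2a window, 275 of 300 bases are exon of Gm16989. Its start, base 40830289 of chromosome 13 in mm9, lies outside the counted Tcfap2a gene, which ends at 40829192. The other start, 40829164, lies inside the counted gene, and 59 of the 300 bases of its window are exon of Gm16989.

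Libraries held 1150089 to 1285487 counts, of which the locus AY036118 took 32.3% to 37.2%, and the median tested gene held 23 to 27 counts. Fragments were counted on the strand of the gene, per the file headers, yet genes opposite abundant genes held the counts. At a locus 29830 bases from Foxd1, Btf3, which encodes a transcription factor subunit used in all cells, held 6 to 12 counts per library, and Gm9828 opposite it 1838 to 2071. A count at a gene with an annotated gene opposite was therefore taken to come from RNA of the other strand, and not to measure the transcripts of the named gene itself. Counts at Nsd1, 21 and 25 in WT, 55 and 38 in KO1 and 27 and 21 in KO2, do not check the genotype, since Nsd1 has no annotated exon opposite.

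Of 23 ES cell markers, 22 had counts, with Rex2 at 0, and their summed level was 493 to 511 CPM (counts scaled to library size by edgeR's cpm) in WT, 512 to 557 in KO1 and 493 to 523 in KO2. The 5 genes opposite ES cell markers summed to 5274 to 5300 CPM in WT, 3067 to 3127 in KO1 and 5945 to 5980 in KO2. Most of this sum and its shift lay at 1 gene, Gm17232 opposite Tdh, with 4428 and 4750 counts in WT, 2206 and 2045 in KO1, and 5421 and 5888 in KO2. Gm14261 opposite Sall4 (583 and 536 in WT, 596 and 607 in KO1) and Gm2301 opposite Tbx3 (634 and 582 in WT, 751 and 724 in KO1) were not lower in KO1. Gm13061 opposite Lin28a was lower in both lines (515 and 503 in WT, 401 and 362 in KO1, 417 and 372 in KO2). Aire opposite Dnmt3l held 0 to 3 counts. The 5 genes opposite neural markers summed to 182 to 186 CPM in WT, 315 to 335 in KO1 and 114 to 129 in KO2, and the 6 opposite fibroblast markers to 1494 to 1560, 1368 to 1421 and 1276 to 1313. The neural sum rests on Nefm (69 and 69 counts in WT, 228 and 197 in KO1, 35 and 54 in KO2) and Gm11149, with 0 to 6 counts at the others. The fibroblast sum rests mostly on Apol7d, but its fall does not. Apol7d held 1338 and 1402 counts in WT, 1483 and 1528 in KO1, and 1311 and 1468 in KO2. Lower in both lines were Gm17329 opposite Col1a1 (78 and 94 in WT, 4 and 3 in KO1, 4 and 1 in KO2) and Syn3 opposite Timp3 (75 and 97, 16 and 19, 9 and 15). Gm15270 opposite Ctgf and 2810430I11Rik opposite Col5a1 were also lower in both. Both genes opposite endoderm markers were at 0, and the 1 opposite a mesoderm marker was at or below 4.28 CPM. In bulk RNA, fewer cells of a type and less RNA per cell cannot be told apart, and the part of these shifts in the values below was not tested.

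At the HoxA cluster, fragments counted at 2700086A05Rik were lower in both lines. This long non-coding RNA gene (ENSMUSG00000085696.2, chromosome 6, 52125216 to 52165075, plus strand of mm9) ends inside the untranslated part of Hoxa7, with 586 shared bases, and also shares 300 and 297 bases with 2 records of Hoxa3. In WT the libraries held 55 and 60 counts, while KO1 held 16 and 20 and KO2 25 and 30. The 3 groups did not overlap, with KO1 lowest and KO2 between. The mean level was 48.5 ± 2.0 CPM in WT, 14.5 ± 2.65 in KO1 and 23.0 ± 1.70 in KO2 (SD, n = 2 libraries each, as for all CPM below). The log2 fold change was -1.74 ± 0.26 in KO1 and -1.07 ± 0.24 in KO2 (± standard error of the fit, as for all such values below).

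Hoxa7 itself (ENSMUSG00000038236.6, minus strand, 52164490 to 52171853) held 0 or 1 counts in the WT and KO2 libraries, and 2 and 0 in KO1. Hoxa7 thus held 4 counts in all, against 206 at 2700086A05Rik, and no fold is given because every group lay at or under 3 counts. A sum of 1 count allows 0.0253 to 5.57 by the exact 95% Poisson interval, so changes of several fold in the counts at Hoxa7 were not detectable at this depth. Intervals given here cover counting error only.

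Of 26 genes within 100 kb of 2700086A05Rik, 18 had any count.

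Chromosome 6 as a whole was lower in KO1. Its 259 tested genes had a median log2 fold change of -0.42 in KO1 and -0.03 in KO2, against 0.00 and -0.01 over all tested genes, and 64 of them fell and 5 rose in KO1. The part of this shift in the KO1 value of 2700086A05Rik was not tested. In KO2, where the median of the chromosome lay near 0, the value at 2700086A05Rik was -1.07. On the chromosomes of the other members (5, 7, 8, 13 and 15) the medians lay between -0.09 and 0.08 in both lines.

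At the Nkx1-2 locus, the lines lay on opposite sides of WT. Gm16764 (ENSMUSG00000087657.2, a processed transcript, chromosome 7, 139789070 to 139791320, plus strand) had WT counts of 495 and 526, KO1 counts of 354 and 349, and KO2 counts of 800 and 854. No library of a group overlapped another group, and replicates lay close together. Its level was 431 ± 9.74 CPM in WT, 283 ± 4.48 in KO1 and 693 ± 6.16 in KO2, with log2 fold changes of -0.61 ± 0.08 and 0.69 ± 0.07. The mean of both lines against WT was 0.04 ± 0.07, because the changes cancel. With the most counts of the 10 genes, Gm16764 had the smallest standard errors.

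Nkx1-2 (ENSMUSG00000048528.6, minus strand, 139786560 to 139791320), expressed in the caudal embryo and later in neurons, held far fewer fragments. Its counts were 12 and 14 for WT, 4 and 8 for KO1, and 17 and 19 for KO2. The groups kept the order seen at Gm16764 and did not overlap, but the log2 fold changes had wide errors, -1.16 ± 0.49 in KO1 and 0.46 ± 0.39 in KO2. Without KO1 replicate 1 the KO1 value was -0.72 and without KO1 replicate 2 it was -1.77.

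The share of the locus counts that lay on Nkx1-2 was 2.48% in WT (exact 95% binomial interval 1.63% to 3.62%), 1.68% in KO1 (0.870% to 2.91%) and 2.13% in KO2 (1.5% to 2.94%). These intervals overlap, so a shift of balance between the strands was not detectable at this depth. Around the locus, Gm15582 was the other tested gene within 100 kb. It held 9 and 5 counts in WT, 9 and 6 in KO1, and 21 and 13 in KO2, with a log2 fold change of 1.26 ± 0.47 in KO2 that was not called (edgeR adjusted p 0.0971).

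At the Tcfap2a locus, fragments counted at Gm16989 were lower in KO1 alone. Gm16989 (ENSMUSG00000087310.1, a long non-coding RNA gene, chromosome 13, 40823177 to 40830514, plus strand) runs across the start of Tcfap2a and shares 111 exon bases with it, 45 coding and 66 untranslated. Its counts were 51 and 41 for WT, 11 and 6 for KO1, and 59 and 52 for KO2. KO1 lay below every other library, and KO2 did not overlap WT, by a margin of 1 count. The level was 38.9 ± 6.76 CPM in WT, 6.81 ± 2.67 in KO1 and 46.7 ± 6.72 in KO2, and on the CPM scale WT and KO2 overlapped. The log2 fold change was -2.49 ± 0.34 in KO1 and 0.26 ± 0.22 in KO2.

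Tcfap2a (ENSMUSG00000021359.8, minus strand, 40811044 to 40829192) had 7 and 4 counts from WT, 4 and 10 from KO1, and 13 and 5 from KO2. All 3 groups overlapped, and the log2 fold changes, 0.28 ± 0.67 in KO1 and 0.69 ± 0.64 in KO2, were near the size of their errors or smaller. Tcfap2a held 10.7% of the locus counts in WT (exact 95% interval 5.45% to 18.3%), 45.2% in KO1 (27.3% to 64%) and 14.0% in KO2 (8.48% to 21.2%). Here the KO1 interval of the summed counts lay above the others, since KO1 counts were lower at Gm16989 and not at Tcfap2a. By library the KO1 shares differed, at 26.7% (7.79% to 55.1%) in replicate 1 and 62.5% (35.4% to 84.8%) in replicate 2. The interval of KO1 replicate 1 overlapped that of every WT and KO2 library. No other gene within 100 kb passed the filter.

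**Figure D1:**
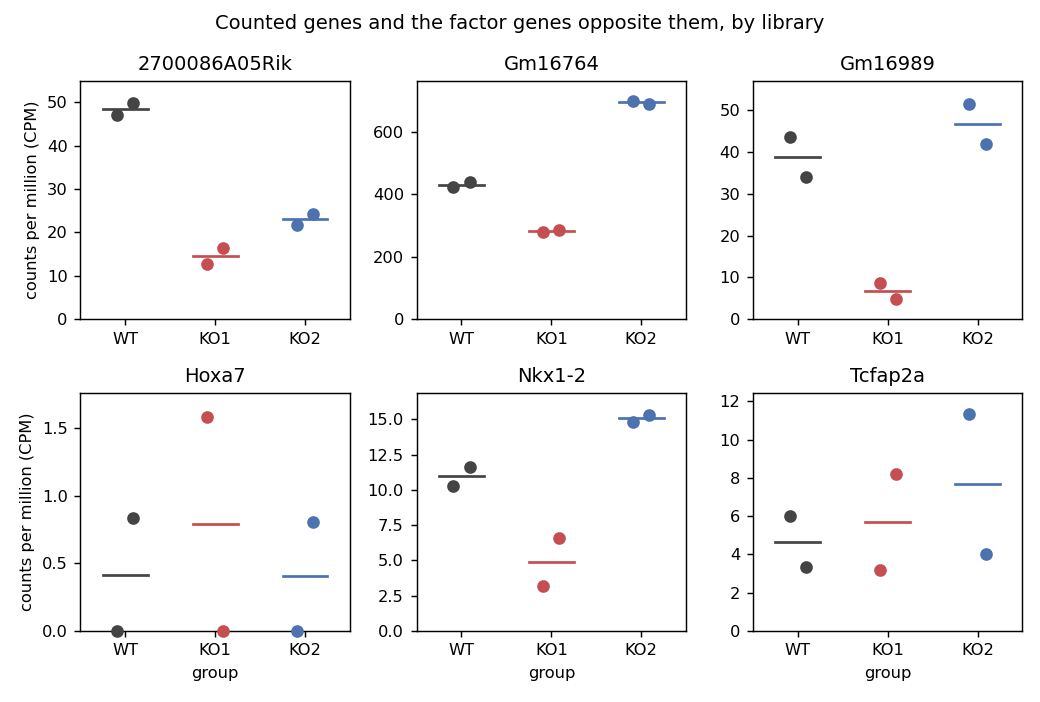
Level in CPM of each gene of the 3 loci with a counted gene on both strands (vertical axes start at 0), 1 point per library and a bar at the mean of the 2 libraries of each group. 2700086A05Rik is lower in both lines, Gm16764 is lower in KO1 and higher in KO2, and Gm16989 is lower in KO1, while Hoxa7, Nkx1-2 and Tcfap2a opposite them stay at or below 15.3 CPM in every library.

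Among the genes with no annotated exon opposite, Foxd1 and En2 were nearly absent from KO1. For these genes it is not known which strand's RNA gave the fragments, that of the gene or that of an unannotated transcript opposite. Foxd1 (ENSMUSG00000078302.3, chromosome 13, 99124200 to 99126660, plus strand, 1 exon) had 27 and 21 counts from WT, 3 and 0 from KO1, and 17 and 9 from KO2. The 3 groups did not overlap, with KO1 at the bottom. Summed over the group, WT held 48 counts (exact Poisson interval 35.4 to 63.6), KO1 3 (0.619 to 8.77) and KO2 26 (17.0 to 38.1). Scaled to library size, WT exceeded KO1 by a ratio of 16.8 (95% interval 5.4 to 84.1) and KO2 by 1.86 (1.13 to 3.12), and KO2 exceeded KO1 by 9.02 (2.76 to 46.6). The fitted log2 fold change was -3.96 ± 0.64 in KO1 and -0.89 ± 0.40 in KO2. The KO2 value, which takes in the spread between libraries, was not called (edgeR adjusted p 0.194). Gm9828, 29830 bases away on the same strand, did not differ in the same libraries beyond its error, at a log2 fold change of 0.00 ± 0.05 in KO1 and 0.01 ± 0.05 in KO2 (edgeR adjusted p 0.987 and 0.956).

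En2 (ENSMUSG00000039095.7, chromosome 5, 28492236 to 28500152, plus strand) had 5 and 20 counts from WT, 2 and 1 from KO1, and 14 and 9 from KO2. KO1 lay below every other library, while KO2 fell between the WT libraries, which differed from each other by 15 counts. The ratio of WT to KO1 was 8.73 (95% interval 2.66 to 45.2), that of KO2 to KO1 was 7.98 (2.41 to 41.5), and that of WT to KO2 was 1.09 (0.596 to 2.02). The KO1 value rests largely on WT replicate 2. Without that library, the fitted log2 fold change of KO1 was -1.74 in place of -3.02. Insig1 and Cnpy1 were the most counted genes within 100 kb of En2. Insig1, a regulator of sterol synthesis, held 12 to 18 counts in every library, with a log2 fold change of -0.02 ± 0.39 in KO1.

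Nkx6-3, a homeobox gene of the stomach and hindbrain, had its lowest mean in KO2. Nkx6-3 (ENSMUSG00000063672.6, chromosome 8, 24263743 to 24269420, plus strand) had 34 and 30 counts from WT, 31 and 14 from KO1, and 4 and 15 from KO2. KO1 overlapped both other groups in counts, and KO2 lay below WT without overlap. The log2 fold change was -0.57 ± 0.33 in KO1 and -1.75 ± 0.40 in KO2. KO1 minus KO2 was 1.18 ± 0.44 and was not called (edgeR adjusted p 0.0575). The KO2 value ran from -1.13 without KO2 replicate 1 to -2.91 without KO2 replicate 2. Ank1, the ankyrin gene 2774 bases away on the same strand, held 7 and 21 counts in WT, 15 and 10 in KO1, and 3 and 5 in KO2. Its log2 fold change in KO2 was -1.78 ± 0.58 (edgeR adjusted p 0.0517), just short of a call.

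Hoxc13, a Hox gene of the hair follicle and nail, varied least among the genes without an opposite exon. Hoxc13 (ENSMUSG00000001655.6, chromosome 15, 102751534 to 102759245, plus strand) had 66 and 67 counts from WT, 49 and 42 from KO1, and 51 and 60 from KO2. Both lines lay below WT, and KO1 below KO2, with no overlap in counts. The level was 56.1 ± 0.544 CPM in WT, 36.6 ± 3.04 in KO1 and 46.4 ± 2.78 in KO2, with log2 fold changes of -0.61 ± 0.20 and -0.27 ± 0.19. Leaving out any 1 WT or KO1 library moved the KO1 value to between -0.69 and -0.55. The 8 other HoxC genes within 100 kb on the same strand summed to 10 and 10 counts in WT, 8 and 3 in KO1, and 7 and 7 in KO2, so Hoxc13 held most of the counts of its neighbourhood. Gm16258, 15248 bases away on the other strand, fell in KO2 (-0.90 ± 0.29, edgeR adjusted p 0.0498) and was not called in KO1 (0.07 ± 0.25). Its difference between the lines was called (0.98 ± 0.29, adjusted p 0.0153). The KO2 call was lost when any 1 of the 6 libraries was left out (-1.15 to -0.66), and the difference between the lines without KO1 replicate 1 (0.90) or KO2 replicate 2 (0.73).

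**Figure D2:**
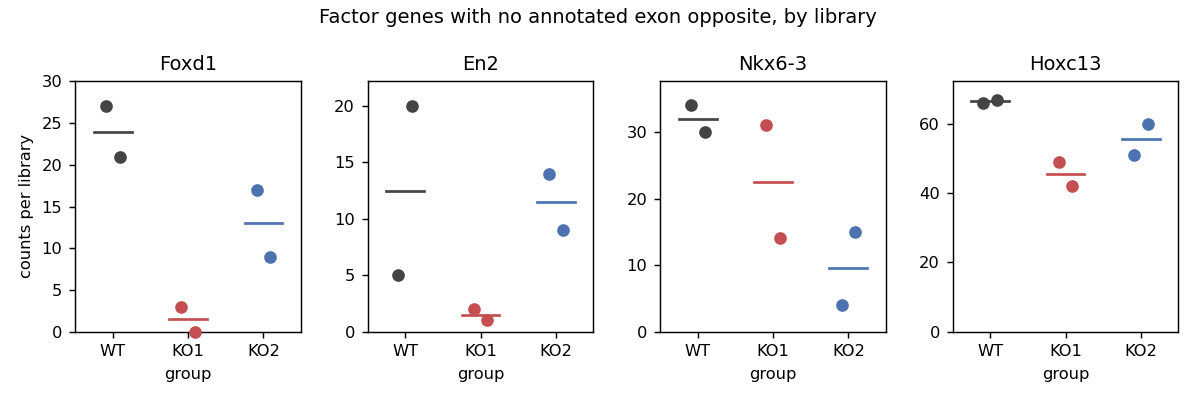
Raw counts of Foxd1, En2, Nkx6-3 and Hoxc13 in each of the 6 libraries (vertical axes start at 0; 1 point per library, bar at the group mean). Foxd1 and En2 hold 0 to 3 counts in the KO1 libraries, Nkx6-3 has its lowest mean in KO2, and Hoxc13 stays between 42 and 67.

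Per kb of exon, the levels of the 10 genes in WT spanned 0.145 to 717 CPM. Gm16764 stood highest, at 705 to 728 CPM per kb in the WT libraries. Gm16989 (22 to 28.2) and Hoxc13 (22.7 to 23.0) came next and overlapped. Below them were 2700086A05Rik (16.3 to 17.3), Nkx6-3 (11.2 to 13.0) and Foxd1 (7.10 to 9.39), none of which overlapped its neighbours in this order. Nkx1-2 (3.15 to 3.57), En2 (0.859 to 3.34) and Tcfap2a (1.03 to 1.85) followed, with En2 overlapping both, and Hoxa7 was last, at 0 to 0.289.

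The order was different in each line. In KO1, Hoxc13 was second (14.0 to 15.8), Nkx6-3 (5.14 to 11), 2700086A05Rik (4.38 to 5.68) and Gm16989 (3.17 to 5.61) overlapped in turn, and Foxd1 and En2 stood at or below 0.964 and 0.318 CPM per kb. In KO2, Gm16764 stood at 1146 to 1161, and Gm16989 (27.1 to 33.2) lay above Hoxc13 (18.1 to 19.7) with no overlap.

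Counted over the 9 tested genes, more differences pointed down than up. In KO1 against WT, 6 were called, each of them lower, where 9.79% of all tested genes were called (6.34% lower and 3.46% higher). In KO2 against WT, 2 were called lower and 1 higher (background 8.98%, with 3.97% lower and 5.01% higher). For the mean of both lines 4 were called, each lower (background 6.62%, with 3.89% lower and 2.72% higher). These were 2700086A05Rik, Gm16989, Foxd1 and Nkx6-3, of which Gm16989 was not lower in KO2 (0.26 ± 0.22). For this mean DESeq2 did not call Gm16989 (adjusted p 0.058) or Nkx6-3 (adjusted p 0.209), and gave no adjusted p for Foxd1. Between the lines 5 were called, each lower in KO1 (background 19.3%, with 11.4% lower and 7.93% higher). Of the calls in KO1, Hoxc13 was lost with any 1 WT or KO1 library left out and without a filter. It was also lost with AY036118 left out, with only the compared groups in the fit and by DESeq2. En2 was lost without WT replicate 2, KO1 replicate 1 or KO1 replicate 2. DESeq2 gave no adjusted p for En2 or Foxd1 in KO1, so it neither kept nor lost these calls. Of the calls in KO2, 2700086A05Rik was lost by DESeq2 (-1.06 ± 0.40, adjusted p 0.0964). Nkx6-3 was lost without KO2 replicate 1, and DESeq2 gave no adjusted p for it in KO2. Because the genes were chosen from these contrasts, nothing is read from these counts. The median log2 fold change was -1.16 in KO1 and -0.12 in KO2, against 0.00 and -0.01 over all tested genes.

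The background counts themselves moved with the KO1 libraries: 493 genes were called in KO1 against WT and 971 between the lines. Without KO1 replicate 1 these counts were 279 and 560, and without KO1 replicate 2 they were 303 and 642. For the mean of both lines 333 genes were called, and 218 or 216 without WT replicate 1 or 2. A fit that treats all knockout libraries as a single group, and so counts the difference between KO1 and KO2 as spread, called 6 genes and 0 of the 9 members.

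**Figure D3:**
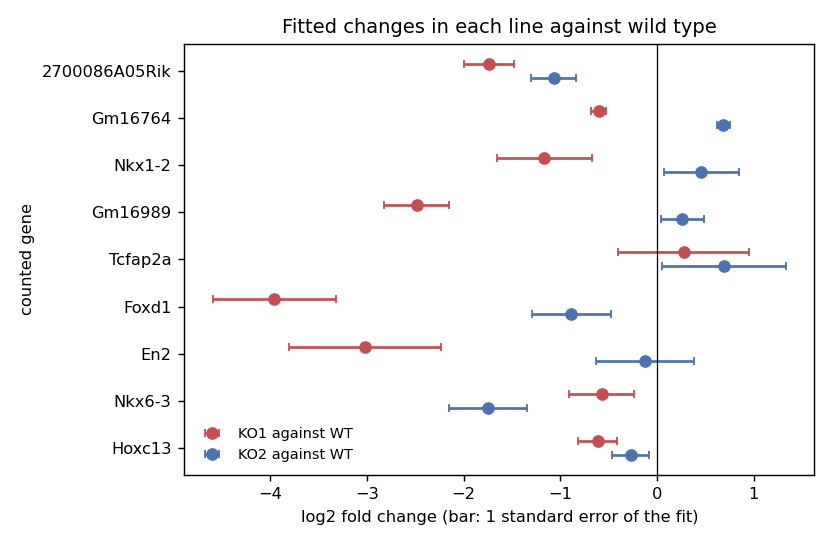
Fitted log2 fold change against WT of the 9 tested genes in KO1 and KO2, with bars of 1 standard error of the fit and a line at 0. KO1 lies below 0 for every gene but Tcfap2a, and the lines lie furthest apart at Foxd1, En2 and Gm16989.

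Other developmental factors from 7 lists (Hox, NK, forkhead, AP-2, other homeobox and paired box, Sox, Gata and T-box, and bHLH, Zic and Gli), with the 10 genes left out, were mostly too low to test. By the symbol of the counted gene, 27 of 299 passed the filter, among them 0 of 38 Hox genes, 13 of which were at 0 in every library. None of the 27 was called in KO1 by edgeR (3 had an unadjusted p under 0.05, and DESeq2 called 0). In KO2, 2 rose: the T-cell leukemia homeobox gene Tlx2 (1.49 ± 0.33, edgeR adjusted p 0.00261) and Sox15 (0.74 ± 0.24, adjusted p 0.0468). The call of Tlx2 was lost without WT replicate 1 (1.14), and that of Sox15 without any 1 library except KO2 replicate 2 (0.61 to 0.86). The median log2 fold change of the 27 genes was -0.06 in KO1 and -0.17 in KO2.

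By the symbol of the gene opposite, 12 of 51 entries were tested. In KO1, 2 of them rose and 2 fell, and in KO2 only 1 was called, higher, with medians of 0.11 and -0.04. A330033J07Rik, opposite Id4, which encodes an inhibitor of bHLH factors, held 21 and 26 counts in WT, 70 and 63 in KO1, and 24 and 11 in KO2. It rose in KO1 (1.43 ± 0.26, edgeR adjusted p 3.06e-04), and KO1 lay above every other library. D130058E05Rik, opposite the homeobox gene Gbx2, also rose in KO1 (0.30 ± 0.09, adjusted p 0.0339), and Gm17419, opposite Sox4, fell (-0.46 ± 0.10, adjusted p 0.00174). Inpp5a, opposite the NK gene Nkx6-2, rose in KO2 (0.72 ± 0.14, adjusted p 5.79e-04). The calls of A330033J07Rik and Inpp5a held with any 1 library left out. That of Gm17419 was lost without KO1 replicate 2 (-0.38), and that of D130058E05Rik without WT replicate 2 (0.23), KO1 replicate 1 (0.33) or KO1 replicate 2 (0.27).

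Between the lines, where 19.3% of all tested genes were called, 6 of the 27 and 5 of the 12 were called, the former count near that background. By counted symbol 5 were lower in KO1 and 1 higher, and by the symbol opposite 2 were lower and 3 higher. Lower in KO1 than in KO2 were the T-box gene Eomes (-1.39 ± 0.47, edgeR adjusted p 0.0377), Tlx2 (-1.09 ± 0.30, adjusted p 0.0101), Cdx1 (-1.08 ± 0.38, adjusted p 0.0427) and Sox15 (-0.79 ± 0.24, adjusted p 0.0179). Foxp3, opposite Ccdc22, was also lower (-0.36 ± 0.10, adjusted p 0.00815). Higher in KO1 were A330033J07Rik (1.86 ± 0.28), Gm4675, opposite Sox21 (1.19 ± 0.29, adjusted p 0.00412), and Gbx2 (0.54 ± 0.17, adjusted p 0.0230). Leaving out KO1 replicate 1, KO1 replicate 2 or KO2 replicate 1 left 1, 1 and 2 of the 6 calls by counted symbol. DESeq2 called 0 of them, but gave no adjusted p for Eomes, Tlx2 or Cdx1. The calls of A330033J07Rik held with any 1 library left out, while Gm4675 was lost without KO2 replicate 2 (0.82) and Foxp3 without KO1 replicate 1 (-0.19). The only tested AP-2 gene, Tcfap2c, held 3 to 13 counts and was not called in KO1 (0.98 ± 0.56) or KO2 (-0.64 ± 0.72).

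For 8 of the tested members, the genes with the most similar profile were taken by Pearson's r of log2 CPM over the 6 libraries, among up to 2878 genes with at least 20 CPM in the highest group. The points share 6 libraries and 3 groups, so some high values are reached among so many genes, and they are given as a description. The highest r was 0.998 for Gm16764 with 1600012H06Rik (opposite Phf10), 0.996 for Gm16989 with Klc3 (opposite Ercc2), and 0.993 for both 2700086A05Rik with Doc2a (opposite Ino80e) and Foxd1 with E230016M11Rik (opposite Gadd45a). It was 0.989 for Hoxc13 with Gm15800, 0.983 for Tcfap2a with 5830418K08Rik, 0.981 for En2 with B130055M24Rik and 0.980 for Nkx6-3 with Gapdhs. E230016M11Rik, closest to Foxd1, held 73 and 66 counts in WT, 39 and 27 in KO1, and 64 and 58 in KO2, in the same order of groups with a smaller difference.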

How the data were processed

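Total RNA of 6 libraries was analysed, 2 per group. The authors deposited raw, unnormalized counts per gene for each library. Per the file headers, paired fragments over exons were counted with featureCounts 2.0.1 at strand setting 1, with GENCODE mouse version 1 on mm9. Per the submitters' processing notes, the tools were STAR 2.5.4b, featureCounts 2.0.0, Trim Galore 0.6.4, bedtools 2.92.2, Bowtie2 and GATK 4.1.4.0, in roles that are not stated. The sources used here do not say whether the library kit marks strand. All 37310 genes matched the annotation, and coordinates are 1-based.

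The members, gene lists and tests were chosen with earlier results of these data known. With edgeR 4.0.16 (R 4.3.3), genes were filtered by filterByExpr (minimum count 10), scaled by TMM and fitted by robust quasi-likelihood, with 1 mean per group, no replicate term and 3 residual degrees of freedom. The common biological coefficient of variation was 4.46%. Calls needed a Benjamini-Hochberg adjusted p under 0.05 across the 5034 genes. CPM are counts scaled to the TMM-adjusted library size. An exact permutation test of 2 against 2 libraries cannot go below 0.333 and was not used. Ratios of summed counts carry exact binomial 95% intervals. Libraries of a group differed by more than sampling noise in a chi-square test. The gene opposite was the antisense gene sharing the most exon bases, at least 50 (bedtools 2.31.1). Sequences are from NCBIM37 (mm9), GENCODE version 1 and RefSeq (GRCm38.p6).

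Named besides the 10 members were genes within 100 kb that were called or, where none was, the 2 with the most counts, up to 4 called genes of each list, and the 3 genes closest to each member by correlation, of which the first is printed. Some genes and sequences that these rules name are not reported here. Alternatives were DESeq2 1.42.0, RLE factors, no filter, a replicate term, AY036118 left out, fits of the compared groups alone, the knockout libraries as a single group, an opposite overlap of 1 base, and leaving out each library.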

Additional observations from a re-analysis of the deposited data

Results flagged for a closer look

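Between KO1 and KO2, edgeR called 5 of the 9 tested members, with p adjusted over all 5034 tested genes, of which 971, or 19.3%, were called. The members were chosen from the counts of these same groups, so the values are a description and nothing is read from the calls. As KO1 minus KO2 on the log2 scale, Gm16764 stood at -1.29 ± 0.07, Gm16989 at -2.75 ± 0.32 and Nkx1-2 at -1.62 ± 0.46. Foxd1 stood at -3.07 ± 0.73 and En2 at -2.90 ± 0.80, each with 3 counts in KO1, so that these fitted values depend on the prior count. In all 5 genes both KO1 libraries lay below both KO2 libraries, which the choice of members from these counts favours. The share of all tested genes with that order is not given, so nothing is read from it. The difference was no longer called for Nkx1-2 without KO1 replicate 1 (-1.18), for Foxd1 without KO1 replicate 2 (-2.16), or for En2 without KO1 replicate 1 (-3.39), KO1 replicate 2 (-2.54) or KO2 replicate 1 (-2.51). For Gm16764 and Gm16989 it was called with any 1 library left out and by DESeq2, which gave no adjusted p for Nkx1-2, Foxd1 or En2.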

How the results depend on the processing

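In every setting tried, each called member value kept its sign. DESeq2 called 115 genes and 1 member for the mean of both lines, 207 and 3 in KO1, 170 and 1 in KO2, and 417 and 2 between the lines; it called 2 of the list genes by opposite symbol in KO1 and 2 between the lines, and 0 by counted symbol in KO2 and 0 between the lines. Genes for which DESeq2 gave no adjusted p stand as not called in these counts. The knockout libraries as a single group gave 6 genes and 0 members. Without a filter, list calls by counted symbol were 2 in KO1 and 1 in KO2, and by opposite symbol 2 in KO2. The fits of the compared groups alone gave 1 and 1 by counted symbol, and 3 members between the lines. RLE factors, and leaving out AY036118, gave 2 by opposite symbol in KO2. Except for DESeq2 and the single group, the number of all genes called is not given beside these counts, so nothing is read from them. The cause of these shifts was not tested.

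Replicate numbers are shared by the groups, but differences between replicates did not correlate between groups (r from -0.04 to 0.01 over 5034 genes), so the samples share only a number. The fit with the replicate block gave 1 list call by counted symbol in KO1 and 1 in KO2.

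Leaving out 1 library at a time gave 216 to 362 genes and 3 to 4 members for the mean of both lines, 279 to 590 and 4 to 6 in KO1, 325 to 425 and 2 to 3 in KO2, and 560 to 1067 and 3 to 6 between the lines. List calls were 0 to 1 by counted symbol and 2 to 5 by opposite symbol in KO1, 0 to 2 and 1 to 2 in KO2, and 1 to 6 and 3 to 5 between the lines. With a median of 23 to 27 counts per tested gene, most list genes and Hoxa7 were too low to test.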
